A study of Mus musculus with 2 samples.

Results

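A set of secreted ligands linked to blood vessel growth was examined in RNA sequencing of mouse cavernous endothelial cells (MCECs) under high glucose (HG). The set held 10 genes taken by symbol, Vegfa, Vegfb, Vegfc, Pgf, Angpt1, Angpt2, Angptl4, Hgf, Fgf2 and Pdgfa, and all 10 were found among the 23183 gene symbols of the files. Each condition was 1 library. HG+HBS cells were given the buffer HBS, called vehicle below, and HG+PC-NVs cells were given vesicle-like particles made by pressing cultured mouse cavernous pericytes through membranes (PC-NVs). The labels give 5 days of glucose for both libraries, while the study's methods and legends give a shorter time. Both libraries came from cells grown out of the penis of adult male C57BL/6J mice, in medium with serum and heparin to which, by the methods, VEGF protein was also added. By the methods the cells were kept without serum before the glucose exposure, and PC-NVs were present for only a part of that exposure. How many animals or cultures went into each library is not given in the sources used here. Values are normalized FPKM, a fragment count scaled for transcript length and library total, with the transcript rows of a gene summed. With a single library each, the spread between cultures is unknown, and no ratio below has a replicate check. The depth was estimated at 11600000 to 13300000 fragments. Intervals below are exact 95% intervals for counting error, from an estimated number of fragments, and cover nothing else.

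Vessel growth is steered by a few families of secreted proteins. VEGF family ligands act on the receptors Flt1, Kdr and Flt4, with Nrp1 and Nrp2 as co-receptors. Angiopoietins act on Tek, HGF on Met, FGF2 on the FGF receptors and PDGF-A on Pdgfra. In vessels, VEGF ligands are best known for sprouting, angiopoietins for vessel stability, and HGF, FGF2 and PDGF-A for signals between mesenchymal cells and their neighbours.

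The cell type in the label was checked against marker genes. Of 14 endothelial markers, 4 reached 1 FPKM with vehicle and 3 with PC-NVs, and the list summed to 36.2 and 29.1 FPKM. The highest were Esam, at 17.4 and 11.7 FPKM, Egfl7, at 9.48 and 8.57 FPKM, and Cdh5 (VE-cadherin), at 5.05 and 5.73 FPKM. Pecam1 (CD31) was at 1.05 and 0.938 FPKM and Vwf, the von Willebrand factor gene, at 0.158 and 0.128 FPKM, both named after their values were seen. All 8 fibroblast markers were at 36.3 FPKM or more in both libraries and summed to 2068 and 2368 FPKM, led by Dcn, Thy1 and Col1a2. Dcn, the gene of decorin, was at 623 and 1283 FPKM and made the sum higher with PC-NVs, while the other 7 were lower. The 10 mural cell markers summed to 120 and 94.9 FPKM, led by mean level by Pdgfrb, at 38.4 and 33.7 FPKM, Acta2, at 27.6 and 8.02 FPKM, and Cspg4, at 20.4 and 12.2 FPKM. The RNA therefore carried little of the endothelial marker set, and the values below are those of the cultures as they were. None of the markers of the 4 lists was at 0 in both libraries.

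**Figure D1:**
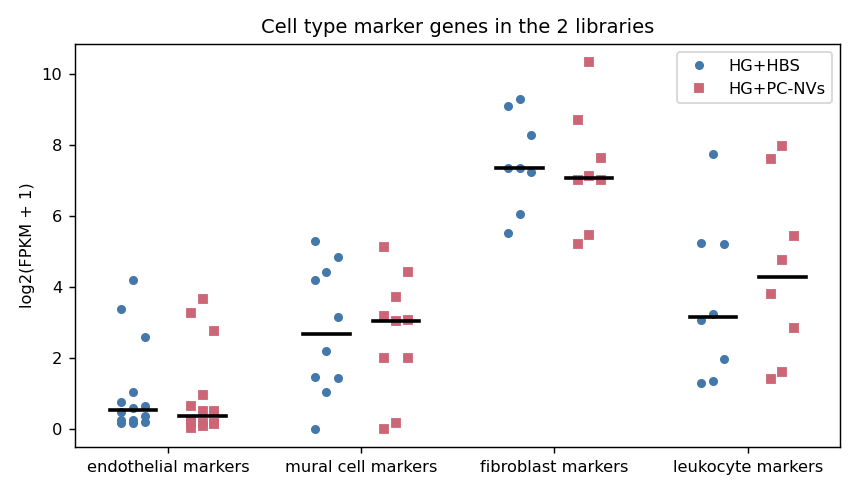
Marker genes of 4 cell types in HG+HBS (circles) and HG+PC-NVs (squares), 1 point per gene, as log2(FPKM + 1), with black bars for medians. In both libraries the median FPKM is lowest for the endothelial markers, at 0.455 and 0.308, and highest for the fibroblast markers, at 162 and 134, with single genes of the lists overlapping.

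Among the 10 ligands, 3 were higher by more than 1.5-fold with PC-NVs. They were Vegfa, Hgf and Angptl4, whose summed level went from 165 FPKM with vehicle to 311 FPKM with PC-NVs. The other 7 summed to 145 FPKM and 135 FPKM. The 3 were grouped by their ratios in these same libraries, so the rise of their sum was fixed by that choice. Folds used for counts are ratios of FPKM + 1. Past a fold of 2, 1 of the 10 was higher, Vegfa, and 0 were lower, while 2.52% of the 12109 genes at 1 FPKM or more in at least one library were more than 2-fold higher and 0.867% more than 2-fold lower. Past a fold of 1.5, 3 of the 10 were higher and 0 lower, against 5.67% and 3.82% of all genes tested. The median log2 ratio of the 10 ligands was 0.27, and that of all genes tested was -0.01. By the counting interval of the FPKM ratio alone, 5 ligands were above a ratio of 1, 2 were below it and 3 could not be placed on either side. The same count was not made over all genes, so it does not set the ligands apart.

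**Figure D2:**
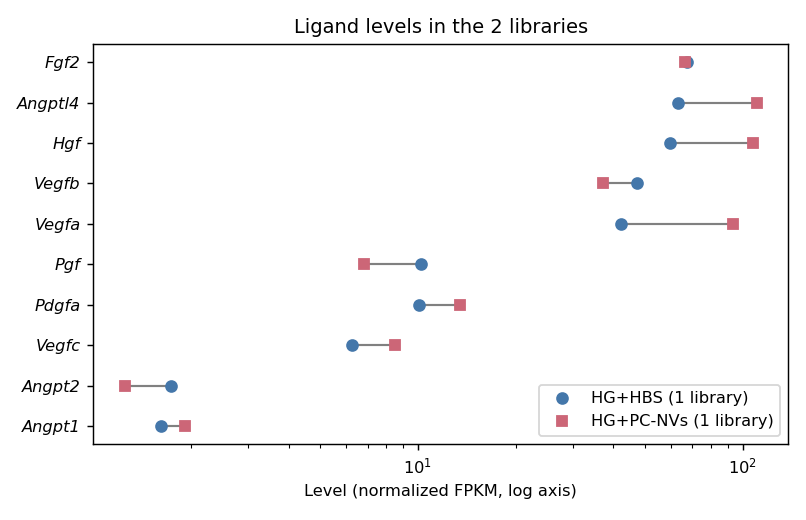
Level of each ligand in HG+HBS (circles) and HG+PC-NVs (squares), in normalized FPKM on a log axis, with 1 library per condition. The longest shift in FPKM is that of Vegfa, from 42.1 to 93.5, while the Fgf2 symbols lie nearly on each other.

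**Figure D3:**
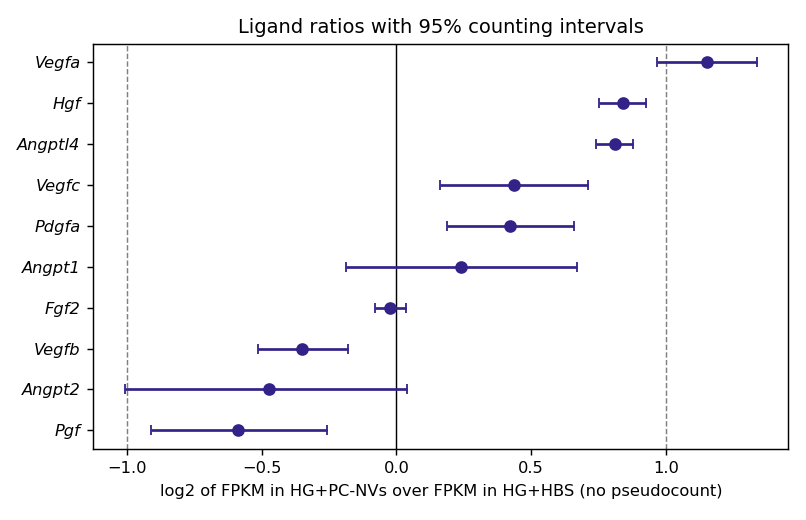
log2 of the FPKM in HG+PC-NVs over that in HG+HBS for each ligand, without a pseudocount. Bars are exact 95% intervals for counting error, dashed lines mark a fold of 2, and only the intervals of Angpt1, Fgf2 and Angpt2 include 0.

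Vegfa encodes VEGF-A, the main ligand of Kdr and Flt1. Its GRCm38 position is chromosome 17, 46016993 to 46032369, reverse strand. Its level was 42.1 FPKM with vehicle and 93.5 FPKM with PC-NVs. The ratio was 2.22 (interval 1.96 to 2.53) and the log2 ratio of FPKM + 1 was 1.13. The fold of 2 lies within this counting interval, which was computed for the shortest transcript, of 654 bases. A longer transcript would give more estimated fragments and a narrower interval. Of the genes tested, 1.96% had a higher ratio. Among the 10 ligands Vegfa moved from place 5 to place 3 by level.

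The files list Vegfa in 9 transcript rows without transcript names, so the rows cannot be assigned to the splice forms of VEGF-A. Of these, 8 reached 0.1 FPKM, and all 8 were higher with PC-NVs, with log2 ratios of FPKM + 1 from 0.41 to 1.23. The most abundant row went from 17.7 to 39.1 FPKM, and the next from 9.09 to 22.3 FPKM. The leading row made up 42.1% of the gene's level with vehicle and 41.8% with PC-NVs. The higher level was thus spread over the rows and was not that of a single one. The split of reads between overlapping rows is an estimate of the authors' software.

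Hgf encodes hepatocyte growth factor, a ligand made by mesenchymal cells that acts on Met. It lies on the forward strand of chromosome 5, from 16553495 to 16620152. Its level was 59.9 FPKM with vehicle and 107 FPKM with PC-NVs, or 1.79 times higher (interval 1.69 to 1.90). Of 5 rows, 3 reached 0.1 FPKM. They went from 25.1 to 43.7, from 23.7 to 45.1 and from 11.1 to 18.5 FPKM. All 3 were higher, with log2 ratios of FPKM + 1 from 0.68 to 0.90.

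Angptl4 encodes an angiopoietin-like protein that inhibits lipoprotein lipase and does not act on Tek. It lies on chromosome 17, from 33773750 to 33781830. Its level was 63.1 FPKM with vehicle and 111 FPKM with PC-NVs, or 1.75 times higher (interval 1.67 to 1.84). By the transcript lengths used (3308 bases for Angptl4, 2189 for Hgf, 654 for Vegfa), this ratio rested on the most fragments of the 3. They were about 2782 with vehicle and 4259 with PC-NVs. Angptl4 and Hgf were the most abundant of the 10 ligands with PC-NVs, and their level intervals overlapped there and with vehicle.

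Promoter sequence is shown for the Vegfa and Hgf genes, which were both higher with PC-NVs, and for Vegfb, which was lower. Pgf had a lower ratio than Vegfb, but its windows overlap annotated exons and are not shown. RefSeq windows of GRCm38.p6 were found for 7 of the 10 ligands, and Angpt1, Angpt2 and Angptl4 had no entry in the table. The 250 bases before the annotated start are given 5′ to 3′ on the strand of the gene, for Vegfa chr17:46032378-46032627 on the reverse strand, for Hgf chr5:16553245-16553494 on the forward strand and for Vegfb chr19:6987652-6987901 on the reverse strand. Capitals mark ACGTG or GCGTG, the core letters of the element that HIF factors bind at low oxygen, and GGGCGG, the GC box of Sp1-like factors, on either strand.
Vegfa: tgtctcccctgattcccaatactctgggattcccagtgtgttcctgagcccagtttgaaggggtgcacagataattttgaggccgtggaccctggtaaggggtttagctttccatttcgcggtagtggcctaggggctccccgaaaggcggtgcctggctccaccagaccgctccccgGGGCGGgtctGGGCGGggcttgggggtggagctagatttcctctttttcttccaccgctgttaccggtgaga
Hgf: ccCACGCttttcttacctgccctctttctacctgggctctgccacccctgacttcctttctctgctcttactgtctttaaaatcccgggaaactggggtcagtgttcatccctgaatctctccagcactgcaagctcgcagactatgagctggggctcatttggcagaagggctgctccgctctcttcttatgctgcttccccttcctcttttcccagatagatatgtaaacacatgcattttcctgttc
Vegfb: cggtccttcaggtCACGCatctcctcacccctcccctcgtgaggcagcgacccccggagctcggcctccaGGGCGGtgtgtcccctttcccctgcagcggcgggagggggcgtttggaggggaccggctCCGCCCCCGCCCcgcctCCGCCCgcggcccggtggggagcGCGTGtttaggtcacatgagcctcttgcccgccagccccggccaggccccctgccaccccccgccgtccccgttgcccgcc

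The core ACGTG or GCGTG was not in the Vegfa window shown, but a second Vegfa window in the table, which starts inside the gene, held it in 2 places. It was found once in the Hgf window, at -248 from the start, and in 2 places in that of Vegfb. GGGCGG was found at -72 and -62 in the Vegfa window, in 4 places in that of Vegfb and in none of that of Hgf. Over all 11 windows of the 7 ligands, 6 held the low-oxygen core and 8 the GC box. These counts include windows that overlap annotated exons, those of Pgf, Fgf2 and Pdgfa and the second ones of Vegfa and Hgf. Of the 32851 windows in the table, over the same 250 bases, 38.6% held the core and 32.7% the GC box. Matches are letters only, and sites further away were not searched.

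The other VEGF family ligands gave smaller or opposite differences. Vegfb encodes VEGF-B, a ligand of Flt1, and lies on chromosome 19, from 6982473 to 6987651. Its level was 47.3 FPKM with vehicle and 37.1 FPKM with PC-NVs, a ratio of 0.785 (interval 0.700 to 0.882). Its 2 rows went from 25.5 to 23.5 FPKM and from 21.8 to 13.6 FPKM, so most of the difference was in the second. Pgf encodes placental growth factor, also a ligand of Flt1, and lies on chromosome 12, from 85166635 to 85177790. Its level was 10.2 FPKM with vehicle and 6.82 FPKM with PC-NVs, a ratio of 0.666 (interval 0.532 to 0.836), the lowest of the 10. Vegfc encodes VEGF-C, the lymphatic ligand of Flt4, and lies on chromosome 8, from 54077606 to 54187096. It was at 6.27 FPKM with vehicle and 8.48 FPKM with PC-NVs, 1.35 times higher (interval 1.12 to 1.64).

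These opposite differences shifted the make-up of the family more than its sum. With Figf, the gene of VEGF-D, added from a list of related ligands, the 5 VEGF genes summed to 145 FPKM with vehicle and 167 FPKM with PC-NVs. Vegfa made up 29.0% of this sum with vehicle and 56.0% with PC-NVs. Vegfb went from 32.6% to 22.2% and Figf from 27.0% to 12.5%. The level of Vegfa was 0.890 times that of Vegfb with vehicle and 2.52 times with PC-NVs.

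**Figure D4:**
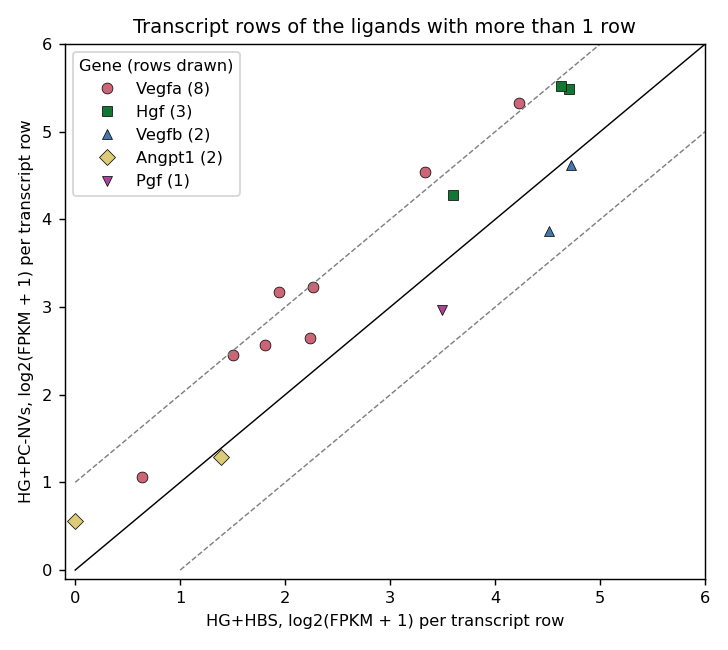
Transcript rows of the ligands that have more than 1 row, as log2(FPKM + 1) in HG+HBS (x axis) and HG+PC-NVs (y axis), for rows at 0.1 FPKM or more in at least one library. The solid line marks equal values and the dashed lines a difference of 1. All 8 Vegfa rows and 3 Hgf rows lie above the solid line, and both Vegfb rows lie below it.

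The angiopoietins were the least abundant of the ligands. Angpt1, which activates Tek, lies on chromosome 15, from 42424723 to 42676977, and was at 1.62 FPKM with vehicle and 1.91 FPKM with PC-NVs, a ratio of 1.18 (interval 0.878 to 1.59). Its main row went from 1.62 to 1.44 FPKM, and a second row from 0.000742 to 0.476 FPKM, so the sign of its summed difference came from that second row. Angpt2, which mostly opposes Angpt1 at Tek, lies on chromosome 8, from 18690263 to 18741562. It was at 1.74 FPKM with vehicle and 1.25 FPKM with PC-NVs, a ratio of 0.720 (interval 0.497 to 1.03). Each rested on fewer than 100 estimated fragments per library, from 52 to 95, and a difference was not detectable at this depth for either gene.

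Fgf2 and Pdgfa represented the FGF and PDGF families. Fgf2, a heparin-binding growth factor, lies on chromosome 3, from 37348346 to 37410108. It was the most abundant of the 10 with vehicle, at 67.5 FPKM, and was at 66.4 FPKM with PC-NVs, where it held place 4. The interval of its ratio ran only from 0.946 to 1.02, since about 5377 and 4621 fragments stood behind it. Pdgfa, a ligand of Pdgfra, lies on chromosome 5, from 138976014 to 138997370. Its level was 10.05 FPKM with vehicle and 13.5 FPKM with PC-NVs, 1.34 times higher (interval 1.14 to 1.58).

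By level, the ligands fell into 3 ranges with vehicle. Fgf2, Angptl4, Hgf, Vegfb and Vegfa were between 42.1 and 67.5 FPKM, Pgf, Pdgfa and Vegfc between 6.27 and 10.2 FPKM, and Angpt2 and Angpt1 under 2 FPKM. The counting intervals of neighbours overlapped for Angptl4 and Hgf, Vegfb and Vegfa, Pgf and Pdgfa, and Angpt2 and Angpt1. In HG+PC-NVs they overlapped for Angptl4 and Hgf, Vegfc and Pgf, and Angpt1 and Angpt2.

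Of 14 receptor and co-receptor genes, 9 reached 1 FPKM in at least one library. Of these, 0 were more than 2-fold higher and 0 more than 2-fold lower, against 2.52% and 0.867% of all genes tested. The median log2 ratio of the 9 was -0.21, with 2 higher and 7 lower. The receptors that VEGF-A and the angiopoietins use on endothelial cells were near the bottom of the scale. Kdr was at 0.518 FPKM with vehicle and 0.438 FPKM with PC-NVs, Tek at 0.137 and 0.128 FPKM, Tie1 at 0.185 and 0.194 FPKM, and Flt1 at 1.19 and 0.835 FPKM. The co-receptors were more abundant and differed in opposite directions. Nrp2 was at 27.5 FPKM with vehicle and 52.8 FPKM with PC-NVs, while Nrp1 was at 35.4 and 21.1 FPKM. Flt4, the VEGF-C receptor, was at 2.79 and 4.50 FPKM.

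Met, the HGF receptor, was at 5.08 FPKM with vehicle and 3.50 FPKM with PC-NVs. The level of Hgf was 11.8 times that of Met with vehicle and 30.6 times with PC-NVs. Among FGF receptors, Fgfr1 was at 94.5 FPKM with vehicle and 61.1 FPKM with PC-NVs, and Fgfr2 at 2.30 and 2.26 FPKM. Fgfr3 was at 0.363 and 0.444 FPKM, and Fgfr4 was listed at or next to 0 in both libraries. The PDGF receptors were at 149 and 129 FPKM for Pdgfra, the receptor of PDGF-A, and at 38.4 and 33.7 FPKM for Pdgfrb.

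Other ligands of the same families were read from a list of 22 symbols, of which 20 are in the files and 11 reached 1 FPKM. The absent symbols were Angptl8 and Vegfd, and Vegfd is another name of Figf, which was found. Of the 11, 1 was more than 2-fold higher and 0 more than 2-fold lower, against 2.52% and 0.867% of all genes tested. The median log2 ratio of the 11 was -0.26. Past a fold of 1.5, 2 of the 11 were higher and 4 lower, against 5.67% and 3.82% of all genes tested. The one past a fold of 2 was Fgf7, a mesenchymal growth factor for epithelium, at 86.6 FPKM with vehicle and 196 FPKM with PC-NVs. Angptl2, the most abundant of this list by mean level, was at 196 FPKM with vehicle and 105 FPKM with PC-NVs. Angptl7 was at 62.4 and 53.0 FPKM. The angiopoietin-like genes therefore differed in opposite directions, with Angptl4 higher and Angptl2 lower.

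**Figure D5:**
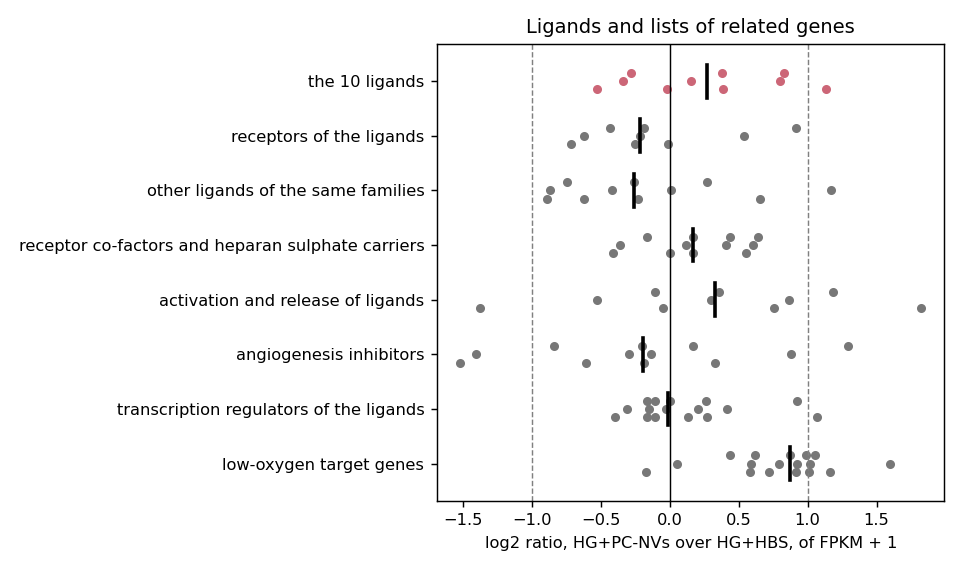
log2 ratio of FPKM + 1, HG+PC-NVs over HG+HBS, for the 10 ligands and for 7 lists of related genes, 1 point per gene at 1 FPKM or more in at least one library. Black bars are medians and dashed lines mark a fold of 2. The median is 0.27 for the ligands, -0.21 for their receptors and 0.87 for the low-oxygen target genes.

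Among 16 genes concerned with the activation or release of such ligands, 10 reached 1 FPKM, with a median log2 ratio of 0.33. The 10 include Spint1, an inhibitor of HGF activation, at 0.231 and 1.07 FPKM, so they are not all activators. Spint1 was named after its values were seen. Past a fold of 2, 2 of the 10 were higher and 1 was lower, against 2.52% and 0.867% of all genes tested. Mmp9, a gelatinase, was at 3.10 FPKM with vehicle and 13.5 FPKM with PC-NVs, and Pcsk5, a proprotein convertase, at 9.53 and 22.9 FPKM. Plat, the tissue plasminogen activator gene, was at 32.8 FPKM with vehicle and 12.0 FPKM with PC-NVs. The most abundant of this list were Mmp2, at 450 and 435 FPKM, Furin, at 61.9 and 79.7 FPKM, and Plau, at 68.4 and 63.6 FPKM. Hgfac, the HGF activator gene, named after its values were seen, was listed at 0 in both libraries.

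Of 15 listed symbols of inhibitors of vessel growth, 14 were found, and the absent Cxcl4 is another name of Pf4, which was found. Of the 14, 12 reached 1 FPKM, with a median log2 ratio of -0.19. Past a fold of 2, 1 of the 12 was higher and 2 were lower, against 2.52% and 0.867% of all genes tested. Sema3f, a repellent ligand of Nrp2, was at 31.9 FPKM with vehicle and 10.5 FPKM with PC-NVs, and Timp3, a metalloprotease inhibitor that also binds Kdr, at 13.96 and 4.65 FPKM. Cxcl10, an interferon-induced chemokine, was at 16.0 and 40.8 FPKM. The most abundant by mean level were Serpinf1, the gene of pigment epithelium-derived factor, at 828 and 719 FPKM, Sparc, at 476 and 419 FPKM, and Isg15, an interferon-induced gene, at 73.3 and 135 FPKM.

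The regulators of these ligands were read last. Of 19 regulator genes, 16 reached 1 FPKM, with a median log2 ratio of -0.01. Past a fold of 2, 1 of the 16 was higher and 0 were lower, against 2.52% and 0.867% of all genes tested. The one was Hif1a, the oxygen-regulated transcription factor gene known to act on Vegfa, at 41.2 FPKM with vehicle and 87.5 FPKM with PC-NVs. Of the most abundant in the list, Egln2 was at 43.7 and 39.3 FPKM and Cited2 at 39.1 and 42.9 FPKM. Among 17 low-oxygen target genes, 5 were more than 2-fold higher and 0 more than 2-fold lower, against 2.52% and 0.867% of all genes tested. The median log2 ratio of the 17 was 0.87, and that of all genes tested was -0.01. Ldha, the gene of lactate dehydrogenase A, was at 439 FPKM with vehicle and 1330 FPKM with PC-NVs. The other 4 were Ddit4, at 21.2 and 48.6 FPKM, Bnip3, at 23.9 and 49.3 FPKM, Hk2, at 7.33 and 15.8 FPKM, and Ankrd37, at 5.21 and 11.9 FPKM. Slc2a1, a glucose transporter gene, was at 102 and 154 FPKM and P4ha1, a collagen hydroxylase gene, at 40.001 and 54.4 FPKM. That list was drawn up with a rise of such genes in these libraries already known, and Egln3 is in both lists. Whether Hif1a had a part in the level of Vegfa or of the other ligands was not tested.

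Markers of leukocytes, which can make VEGF-A and HGF, also differed between the libraries. All 8 reached 1 FPKM in both libraries, and the list summed to 306 FPKM with vehicle and 536 FPKM with PC-NVs. Most of the difference between the sums was in Cd14 alone. The median log2 ratio of the 8 was 0.18, with 5 higher and 3 lower. Past a fold of 2, 3 of the 8 were higher and 0 lower, against 2.52% and 0.867% of all genes tested. More than 2-fold higher were Cd14, at 36.6 and 252 FPKM, Adgre1, at 7.44 and 42.5 FPKM, and Aif1, at 2.93 and 12.9 FPKM. The other 5, among them Ptprc, the gene of CD45, at 1.44 and 1.67 FPKM, stayed within a fold of 2, with Lyz2 at 212 and 193 FPKM and Cd68 at 36.2 and 26.3 FPKM. Adgre1, Aif1 and Ptprc were named after their values were seen. Their part in the levels of Vegfa, Hgf and Angptl4 was not tested, nor was that of the mural cell markers, which differed in both directions. Of the 9 mural cell markers at 1 FPKM or more in at least one library, 3 were higher and 6 lower. Past a fold of 2, 2 were higher and 2 lower, against 2.52% and 0.867% of all genes tested. More than 2-fold higher were Rgs5, at 1.69 and 7.23 FPKM, and Kcnj8, at 7.98 and 20.4 FPKM, both pericyte markers. Cspg4 and Pdgfrb, given above and also used as pericyte markers by the study, were lower by less than 2-fold. More than 2-fold lower were the smooth muscle markers Acta2, given above, and Tagln, at 17.3 and 7.34 FPKM. Rgs5, Kcnj8 and Tagln were named after their values were seen. More cells of a type, more RNA per cell and RNA brought in by the PC-NVs cannot be told apart in such libraries. The study itself assumed that PC-NVs carry and pass on the genes it selected. For Lcn2, which it took further, it found the protein in PC-NVs and tested PC-NVs with Lcn2 knocked down. Its discussion states that more work is needed to tell direct transfer of Lcn2 from regulation in the cells.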

How the data were processed

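RNA of MCECs was sequenced as 1 library per condition. The authors selected poly(A) RNA, made stranded libraries, trimmed the reads, mapped them with TopHat to mm10 (per the labels), took read counts with BEDTools and FPKM with Cufflinks, and normalized with edgeR by quantiles. The sorted values of both libraries still differed by over 0.05 in 2318 rows. Tool versions and the annotation are not given in the sources used here. The deposited values were read as log2(normalized FPKM + 1) from their range and converted to FPKM. Normal-glucose cultures were not analysed here.

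Rows of a symbol were summed, and log2 ratios used a pseudocount of 1. No p-value was computed. Fragments were estimated from the lowest recurring FPKM times length of 2189 genes with a single transcript over 1500 nt, about 13300000 with vehicle and 11600000 with PC-NVs, using each ligand's shortest RefSeq-matched transcript in GENCODE M21 (GRCm38, the same assembly as mm10). Where a ligand also has longer transcripts, the shortest gives the fewest fragments and the widest intervals. Ratio intervals are Clopper-Pearson and level intervals exact Poisson. Scripts were tested on simulated data (scipy 1.17.1 and numpy 2.4.6 under Python 3.11.15; figures with matplotlib 3.10.9, tables with pandas 2.3.3). Ligands and lists were chosen with earlier results of these data known. Named were all ligands and receptors and, of other lists, genes past a fold of 2 and the 3 most abundant by mean level, and of marker lists only the latter and genes at 0 in both libraries. The alternatives are in the closing section.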

Additional observations from a re-analysis of the deposited data

How the results depend on the processing

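Of 50 alternative log2 ratios of the 10 ligands (quantile normalization between the libraries, upper-quartile scaling, median centring, a pseudocount of 0.1, and the highest row of each symbol), 49 kept their sign and 48 stayed within the counting error. The exception in sign was Angpt1, at -0.10 with its highest row alone. Beyond the counting error moved Fgf2, to -0.0896 with quantile normalization, and Vegfb, to -0.11 with its highest row alone. Part of the tally was fixed in advance. The highest row alone cannot change the 5 ligands with a single row, nor Pgf, whose other row was at 0. Median centring only subtracted -0.0099 from every log2 ratio. The log2 ratio of Vegfa ran from 1.10 to 1.15, that of Hgf from 0.78 to 0.84 and that of Angptl4 from 0.74 to 0.81. The count of ligands more than 2-fold higher was 1 in each normalization, pseudocount, row and level setting tried, 3 at a fold of 1.5 and 0 at a fold of 4. The cause of these changes was not tested, other than the thresholds themselves. No paired analysis was possible because each condition has a single library, and for that reason none could be left out. Depth limits Angpt1 and Angpt2.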

Other observations

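Some ligands of these families bind heparan sulphate on the cell surface, and the carriers of these chains were measured together with adhesion and co-receptor genes. Of 15 such genes, 12 reached 1 FPKM, with a median log2 ratio of 0.17. Of the 12, 0 were more than 2-fold higher and 0 more than 2-fold lower, against 2.52% and 0.867% of all genes tested. The most abundant were Gpc4, a glypican, at 228 FPKM with vehicle and 348 FPKM with PC-NVs, Itgb1, an integrin subunit, at 214 and 233 FPKM, and Cd44, the hyaluronan receptor, at 130 and 146 FPKM. Sdc1, a syndecan and the highest ratio of this list, was at 77.4 and 121 FPKM. It was named after its values were seen.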
